A study of Mus musculus with 32 samples.

Results

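The response of rosiglitazone-treated fat cells to tumour necrosis factor was measured in 8 of the 32 libraries of the series, 4 TNF_ROSI libraries set against 4 basal_ROSI libraries across 14428 tested genes. The cells were 3T3-L1 adipocytes, fat cells grown in culture from 1 mouse preadipocyte line with insulin, dexamethasone and IBMX. TNF_ROSI cells received rosiglitazone (ROSI) and TNF-alpha (TNF) for 24 h before RNA was extracted, and basal_ROSI cells received ROSI without TNF, so both groups carried the compound. In 6 further groups of 4 libraries, DMSO vehicle, SCO or CAP7 took the place of ROSI, each with TNF (TNF_DMSO, TNF_SCO, TNF_CAP7) or without (basal_DMSO, basal_SCO, basal_CAP7). SCO is not spelled out in the labels, although an extract of Artemisia scoparia stands in the title of the series, and neither CAP7 nor any dose is described there. The labels call the 4 libraries of a group biological replicates without saying whether they came from separate cultures, so p-values measure the spread between these libraries.

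TNF binds receptors at the cell surface and sets free the transcription factor NF-κB, which switches on chemokines, adhesion molecules and its own inhibitors. In fat cells TNF is also known to lower PPARγ, the nuclear receptor that drives fat storage, and to make the cells resistant to insulin. Rosiglitazone is a thiazolidinedione drug that binds and activates PPARγ. The comparison asks what TNF does while the agonist is present.

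The libraries held 15.1 to 37.7 M counts (M, in units of 1000000 counts) in TNF_ROSI and 16.7 to 28.1 M in basal_ROSI, within the 11.3 to 37.7 M of the whole series. TNF separated the 32 libraries along the first principal component, with 53.0% of the variance. Levels below are counts per 1000000 counts of a library after TMM scaling (CPM). Fold changes are log2 values of TNF_ROSI over basal_ROSI with their standard error (SE, n = 4 against 4). A gene is said to rise or fall where edgeR's quasi-likelihood test, adjusted by Benjamini and Hochberg over all 14428 genes, gave a p under 0.05. The method reads the 3' ends of transcripts, so each gene is counted near its end. The handling of reads that fit several genes is not stated, so values of genes with near-identical copies, such as the MHC class I genes and Arxes2, are uncertain.

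The adipocyte label held in both groups. The 10 adipocyte markers together reached 53391 to 66528 CPM in TNF_ROSI and 72568 to 85772 CPM in basal_ROSI. Of 18 macrophage and leukocyte markers, 7 were at 0 in all 8 libraries, among them the macrophage receptors Adgre1 and Itgam, and 14 stayed under 1 CPM in each of them. The pan-leukocyte antigen Ptprc was at most 0.0536 CPM in TNF_ROSI and at 0 in basal_ROSI. S100a8, a calcium-binding protein of neutrophils that other inflamed cells also make, was the exception in level, with 157, 132, 136 and 157 CPM in TNF_ROSI against 5.92, 6.39, 4.92 and 3.89 CPM in basal_ROSI, a change of 4.78 ± 0.16. The lysosomal protein Cd68 rose by 2.78 ± 0.35, with 4.12 to 5.46 CPM in TNF_ROSI and 0.164 to 1.18 CPM in basal_ROSI. The macrophage mannose receptor Mrc1 had 1.12 to 1.47 CPM in TNF_ROSI and no count in basal_ROSI. Only 5 of the 18 leukocyte markers were tested, and of these 3 rose and none fell, beside 24.9% and 22.5% of all genes. Mrc1 could only rise, and Cd68, at most 1.18 CPM in basal_ROSI, had little room to fall. The summed leukocyte markers came to 140 to 165 CPM in TNF_ROSI, nearly all of it S100a8, and 6.07 to 8.93 CPM in basal_ROSI, where S100a8 was the larger part, and the part of other cells in the results below was not tested. Of 13 endothelial and mural markers 9 stayed under 1 CPM. The 20 preadipocyte and fibroblast markers summed to 2692 to 3027 CPM in TNF_ROSI and 2099 to 2449 CPM in basal_ROSI, and of 16 that were tested 8 rose and 2 fell. In bulk RNA, fewer adipocytes and less RNA of a gene in each adipocyte cannot be told apart.

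In the presence of ROSI, TNF raised 18 of 18 tested NF-κB genes and 16 of 19 tested chemokines. It also raised 44 of 45 interferon-stimulated genes and 20 of 20 genes of antigen presentation. It lowered 25 of 38 PPARγ targets, 18 of 26 lipid droplet genes, 44 of 47 respiratory chain genes and 21 of 25 sterol genes. Only members that passed the filter on low counts were tested. The NF-κB, chemokine, interferon and antigen presentation lists held 19, 27, 51 and 23 members. The 1 tested NF-κB gene and 2 tested chemokines without a count in basal_ROSI could only rise. Of all 14428 genes 6834 changed. Groups without overlap between the 4 TNF_ROSI and 4 basal_ROSI libraries were common, with 5854 of the 14428 genes. This count stands beside each gene said below not to overlap. In TNF_ROSI 3594 genes (24.9%) rose and 3240 (22.5%) fell, and the median over all genes was 0.01. These shares stand beside the counts of rising and falling members given for each list. A change of at least 2-fold was called for 1917 genes (13.3%), 1196 upward and 721 downward, and one of at least 4-fold for 565 and 180 genes. The called rises had a median of 0.67 and the called falls one of -0.57.

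Among called genes that reached a mean of 16 CPM in TNF_ROSI or basal_ROSI and did not overlap between the groups, the 12 largest rises were of inflammatory and defence genes almost throughout. Saa3, an acute phase serum amyloid, had 3595, 3083, 2636 and 3235 CPM in TNF_ROSI, against 1.09, 0.31, 0.601 and 0.219 CPM in basal_ROSI. It rose by 12.31 ± 0.24, and every TNF_ROSI library lay far above every basal_ROSI library. Slc15a3, a peptide transporter of endolysosomes, had 46.8 to 55.3 CPM in TNF_ROSI and no count in any basal_ROSI library, which made it at least 1385-fold higher against a floor of 3 counts over the 4 basal_ROSI libraries. On the same floor the interferon-induced chemokine Cxcl11 was at least 439.9-fold higher, with 9.06 to 25.6 CPM in TNF_ROSI. Cybb, the catalytic subunit of the phagocyte NADPH oxidase, had 92.1, 81, 65.5 and 85.8 CPM in TNF_ROSI and at most 0.124 CPM in basal_ROSI (10.20 ± 0.27). Next in order came Cxcl10 (8.94), the guanylate-binding protein Gbp5 (8.78), the haem-binding plasma protein Hpx (8.02), Ccl5 (7.86), the matrix protease Mmp3 (7.68), the transcript U90926 (7.60), Ccl2 (7.52) and the lipopolysaccharide-binding protein Lbp (7.41). All 12 had groups that did not overlap, as the choice required.

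Under the same limits, the 12 largest falls were smaller and more mixed. Car3, a carbonic anhydrase abundant in fat cells, had 4.56, 2.08, 2.35 and 5.84 CPM in TNF_ROSI, against 35.7, 32.6, 58.7 and 44.5 CPM in basal_ROSI (-3.61 ± 0.24). Adrb3, the beta-3 adrenergic receptor through which catecholamines start lipolysis, had 17.6, 14.8, 13.3 and 24.4 CPM in TNF_ROSI, against 150, 125, 146 and 150 CPM in basal_ROSI (-3.05 ± 0.13). The small matrix proteoglycan Aspn fell by 3.21 ± 0.14. Ccl6 was the 1 chemokine that fell (-2.91 ± 0.12), with 21.1 to 32.8 CPM in TNF_ROSI and 159 to 227 CPM in basal_ROSI. The others were Tmem88b (-2.71), the DNA polymerase Poln (-2.65), the sialyltransferase St3gal6 (-2.62), the Notch-responsive repressor Hes1 (-2.56), a second carbonic anhydrase Car2 (-2.46), the glycogen-targeting subunit Ppp1r3c (-2.32), the heparan sulfatase Sulf2 (-2.31) and Thrsp, a regulator of fat synthesis (-2.28).

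**Figure D1:**
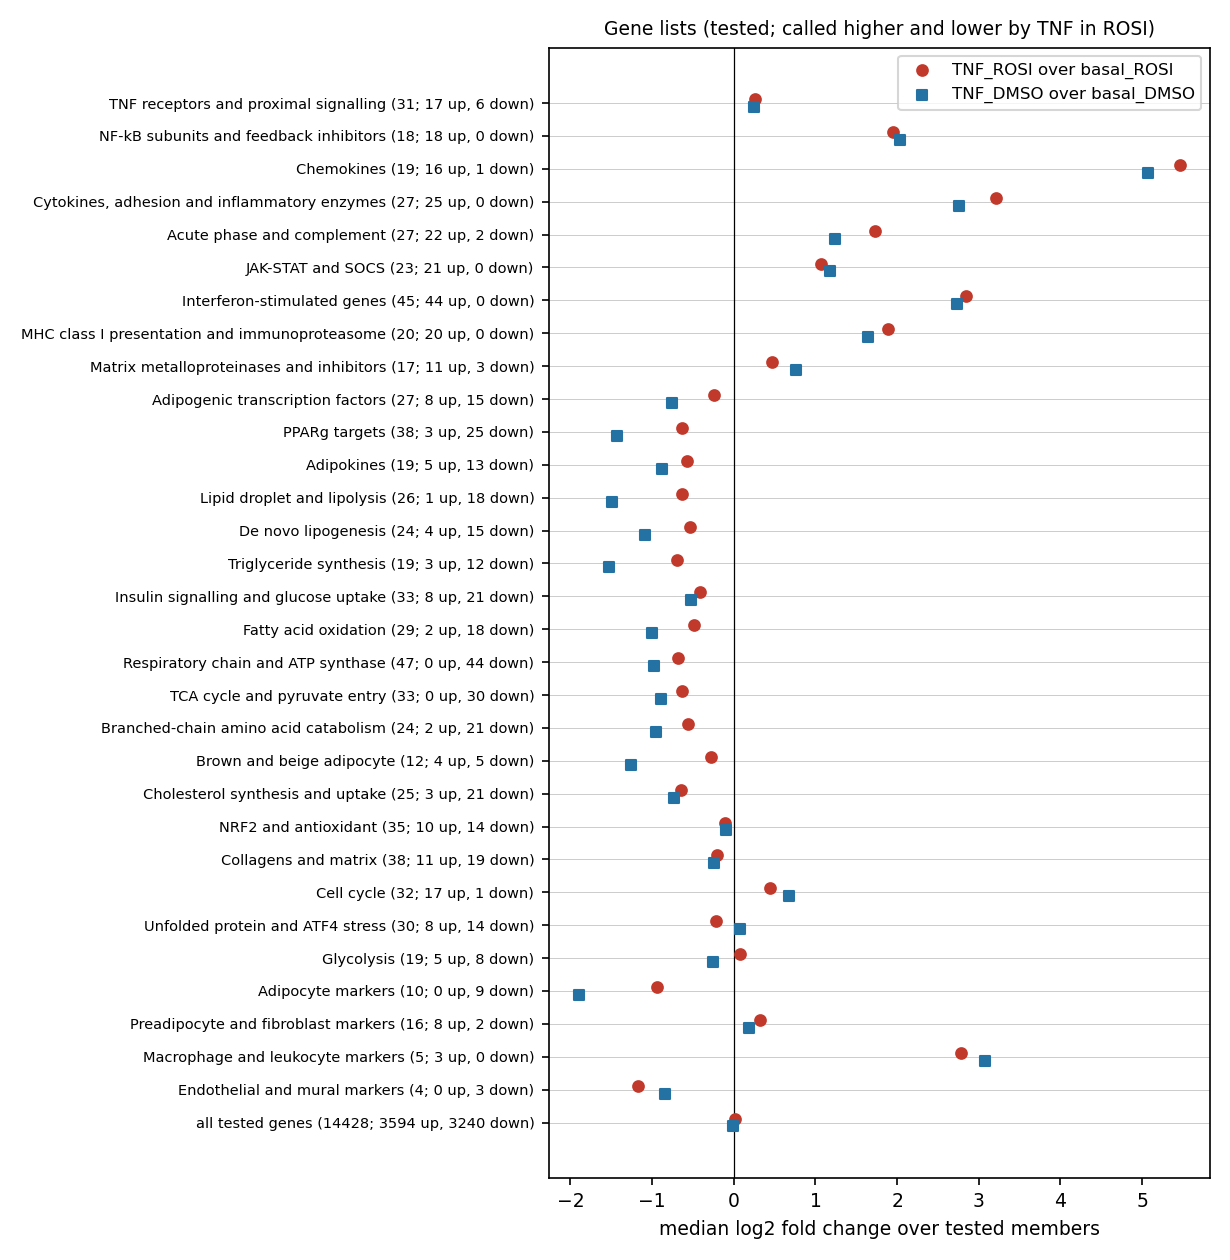
Median log2 fold change over the tested members of 31 gene lists and over all tested genes, for TNF_ROSI over basal_ROSI (red circles) and TNF_DMSO over basal_DMSO (blue squares); each label gives the number tested and the numbers that rose and fell in ROSI. The inflammatory lists lie to the right of 0 in both, and the lists of fat storage lie to the left, nearer to 0 in ROSI than in DMSO.

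Among TNF receptors and the proteins that relay their signal, 17 of 31 tested genes rose and 6 fell, with a median of 0.26. Tnfrsf1b, the inducible TNF receptor 2, had 31.9, 30.1, 29.3 and 22.4 CPM in TNF_ROSI, against 5.7, 6.76, 7.76 and 7.22 CPM in basal_ROSI. The groups did not overlap, and the change was 2.06 ± 0.12. Tnfrsf1a, the receptor present in most cells, moved far less, with 227, 237, 228 and 249 CPM in TNF_ROSI against 202, 214, 204 and 197 CPM in basal_ROSI (0.20 ± 0.05). The adaptor Traf1 had 7.66 to 12 CPM in TNF_ROSI and no count in basal_ROSI, at least 254-fold on the same floor. The ubiquitin ligase Birc3, which protects cells from TNF-induced death, rose by 2.51 ± 0.13, its relative Birc2 by 0.74 ± 0.09 and the adaptor Traf3, a brake on the alternative NF-κB pathway, by 1.92 ± 0.13. Tab3, a partner of the kinase TAK1, was among those that fell (-1.12 ± 0.16).

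All 18 tested NF-κB subunits and feedback inhibitors rose, with a median of 1.95, or 1.64 with Tnip3, which had no count in basal_ROSI, set at its lower bound. The call for Tnip3, with 10 counts in all TNF_ROSI libraries together, was lost without basal_ROSI replicate 1 (fitted change 4.20), without TNF_ROSI replicate 3 (3.94) and by limma-voom (2.26). The promoters of several of these genes hold a motif of the kind that NF-κB subunits bind. Below are stretches of 100 bases that lie before the transcription start and end at it or shortly after the last match before it. They belong to the 5 members of the NF-κB, chemokine and acute phase lists with the lowest p among those with a match before the start. The bases are from the RefSeq promoters of GRCm38.p6, written along the gene's own strand. Capitals mark matches to GGGANNTTC or GGGANNTCC, N being any base, on either strand, with overlapping matches merged.
Tnip1: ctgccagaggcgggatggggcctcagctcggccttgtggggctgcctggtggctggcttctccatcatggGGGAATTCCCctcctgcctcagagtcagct
Cxcl1: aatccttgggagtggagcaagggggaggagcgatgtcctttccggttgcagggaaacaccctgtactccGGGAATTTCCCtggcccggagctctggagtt
Nfkbia: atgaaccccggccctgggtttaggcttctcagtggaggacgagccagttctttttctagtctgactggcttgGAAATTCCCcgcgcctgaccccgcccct
Nfkb2: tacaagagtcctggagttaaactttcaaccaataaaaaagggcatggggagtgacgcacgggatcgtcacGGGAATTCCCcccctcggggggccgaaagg
Tnfaip3: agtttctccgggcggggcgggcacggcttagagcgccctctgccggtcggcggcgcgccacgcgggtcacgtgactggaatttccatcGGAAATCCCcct
These stretches are chr11:54962968-54963067 (minus strand) for Tnip1, chr5:90891105-90891204 (plus) for Cxcl1, chr12:55492648-55492747 (minus) for Nfkbia, chr19:46304628-46304727 (plus) for Nfkb2 and chr10:19015411-19015510 (minus) for Tnfaip3. The counts themselves were made on GRCm39.

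A match lay within 250 bases before to 50 after a start in 7 of 15 NF-κB genes with a promoter (46.7%), 5 of 12 chemokines (41.7%) and 1 of 21 acute phase genes (4.76%). Of genes raised at least 4-fold by TNF in ROSI, 66 of 386 held one (17.1%), of those lowered at least 4-fold 7 of 108 (6.48%), of all tested genes with a promoter 1047 of 10060 (10.4%) and of the genes with a RefSeq promoter 2460 of 27025 (9.10%). Per window of that length the share over all of these promoters was 8.04%. A match is a description of these letters and not evidence of binding.

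The 5 genes shown above rose in all TNF_ROSI libraries. Nfkbia, the IκBα that holds NF-κB in the cytoplasm, had 1741, 1748, 1608 and 1495 CPM in TNF_ROSI, against 298, 276, 315 and 272 CPM in basal_ROSI (2.51 ± 0.07). Tnfaip3, the A20 enzyme that strips ubiquitin from the signalling complex, had 44, 48.1, 41.6 and 46.7 CPM in TNF_ROSI, against 4.27, 5.77, 3.88 and 4.65 CPM in basal_ROSI (3.29 ± 0.13). Its binding partner Tnip1 had 534, 512, 434 and 500 CPM in TNF_ROSI, against 50.9, 51.1, 50.4 and 55.3 CPM in basal_ROSI (3.25 ± 0.07). None of these groups overlapped. The subunit Nfkb2 rose by 2.30 ± 0.08 and its partner Relb by 3.64 ± 0.09. Bcl3, a nuclear IκB protein, rose by 4.27 ± 0.12. The inhibitor Nfkbie had 30.6 to 45.3 CPM in TNF_ROSI and 0.109 to 0.337 CPM in basal_ROSI (7.36 ± 0.26).

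Set against vehicle cells, the genes of this list split. The TNF response in ROSI minus that in DMSO, tested as an interaction, was called higher for 1458 of all genes (10.1%) and lower for 650 (4.51%). In the NF-κB list it was higher for 3 and lower for 4. Tnfaip3 rose by 3.29 in ROSI and by 4.04 in DMSO (difference -0.75 ± 0.19, adjusted p = 0.00519), and Nfkbia by 2.51 and 2.96 (difference -0.45 ± 0.10, adjusted p = 0.00075). Tnfaip2, a TNF-induced protein of membrane protrusions, also rose less in ROSI, by 2.23 and 2.95 (difference -0.72 ± 0.11). Relb rose more in ROSI, by 3.64 and 2.95 (difference 0.69 ± 0.12, adjusted p = 6.9e-05), as did Tnip1, by 3.25 and 2.90 (difference 0.35 ± 0.09). Bcl3 was the other one, by 4.27 and 3.77 (difference 0.51 ± 0.17), but its call was lost in 11 of 16 fits that left out 1 library of these groups (0.34 to 0.51) and by limma-voom (0.47). For Nfkb2 the difference of -0.03 ± 0.11 was not called.

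Of 19 tested chemokines, the signals that draw leukocytes, 16 rose and 1 fell, with a median of 5.46, or 4.29 with the 2 that had no count in basal_ROSI at their lower bounds. Ccl2, which attracts monocytes, had 1398, 1194, 1002 and 1210 CPM in TNF_ROSI, against 5.92, 7.81, 7.16 and 5.47 CPM in basal_ROSI. Cxcl1, which attracts neutrophils, had 322, 262, 246 and 294 CPM in TNF_ROSI, against 5.17, 8.62, 5.68 and 6.4 CPM in basal_ROSI (5.46 ± 0.14). Both were far apart between groups in every library. Cxcl5, another neutrophil attractant, had 422, 393, 302 and 341 CPM in TNF_ROSI, against 4.39, 3.97, 4.97 and 4.1 CPM in basal_ROSI (6.38 ± 0.14). Ccl7 rose by 5.55 ± 0.16 and Ccl9 by 4.29 ± 0.11. Against vehicle, 3 of the 19 chemokines had a higher response in ROSI and none a lower one, not far from the 10.1% and 4.51% of all genes. They were Cxcl5 (6.38 in ROSI, 4.30 in DMSO, difference 2.08 ± 0.18, adjusted p = 3.28e-11), Ccl2 (7.52 and 6.44, difference 1.08 ± 0.20, adjusted p = 0.000134) and Ccl9 (4.29 and 3.28, difference 1.01 ± 0.14). For Ccl2 the level with TNF was nonetheless lower in all 4 ROSI libraries, with a mean of 1201 CPM in TNF_ROSI and 2364 CPM in TNF_DMSO, and without TNF it was 6.59 CPM in basal_ROSI and 27.4 CPM in basal_DMSO.

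Among cytokines, adhesion molecules and inflammatory enzymes 25 of 27 rose and none fell, with a median of 3.21. Vcam1, the adhesion molecule that holds leukocytes, had 503, 469, 378 and 487 CPM in TNF_ROSI, against 33.6, 39.7, 40.5 and 30.8 CPM in basal_ROSI (3.67 ± 0.11). Csf1, the growth factor of macrophages, rose by 3.21 ± 0.09, and the mitochondrial superoxide dismutase Sod2 by 2.27 ± 0.06, and neither overlapped between groups. Cd14, a co-receptor for lipopolysaccharide, rose by 3.09 ± 0.17. Il6 and Icam1 stayed low, Il6 at 1.82 to 3.47 CPM in TNF_ROSI with at most 0.109 CPM in basal_ROSI, and Icam1 at 1.24 to 2.18 CPM in TNF_ROSI with no count in basal_ROSI, at least 48.1-fold on the same floor. The difference from vehicle was called higher for 3 of the 27 members and lower for 2, near the 10.1% and 4.51% of all genes. Cd14 rose by 3.09 in ROSI and by 1.65 in DMSO (difference 1.44 ± 0.23, adjusted p = 8.57e-06). The higher response of Csf1, 3.21 and 2.84 (difference 0.37 ± 0.12), was not called in 11 of the 16 fits without 1 library (0.31 to 0.36) or by limma-voom (0.36).

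**Figure D2:**
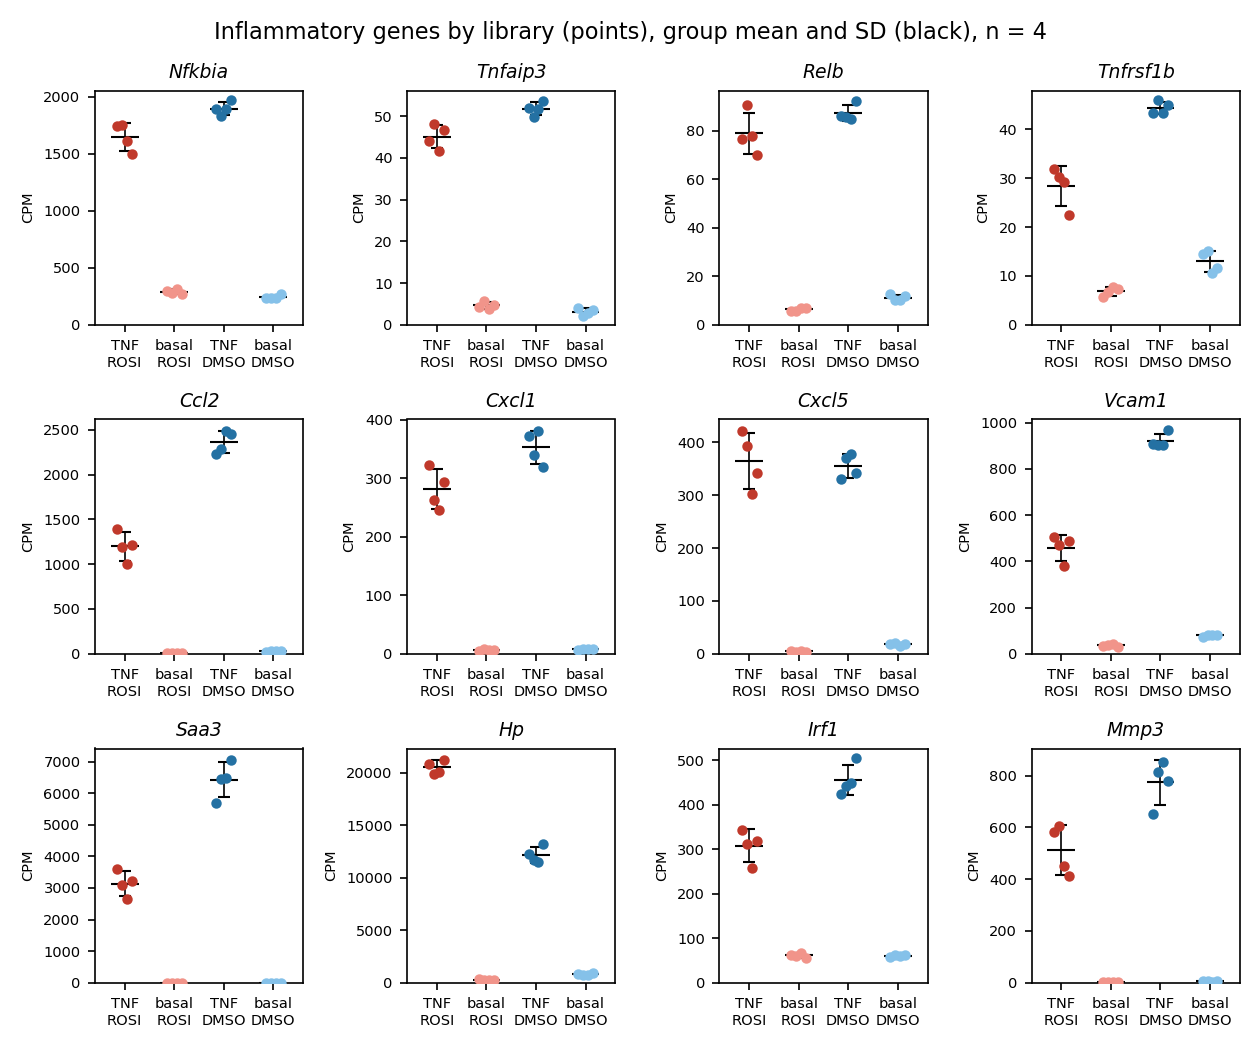
CPM of 12 inflammatory genes in each of the 4 libraries of TNF_ROSI, basal_ROSI, TNF_DMSO and basal_DMSO (points), with the group mean and SD (n = 4); each axis starts at 0. In every panel the TNF_ROSI libraries lie above all basal_ROSI libraries, and Hp reaches 19878 to 21236 CPM in TNF_ROSI against a mean of 12168 CPM in TNF_DMSO.

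Acute phase and complement genes, which the liver and fat release in inflammation, rose in 22 of 27 cases and fell in 2, with a median of 1.73. Without any 1 of basal_ROSI replicates 1 and 4 and TNF_ROSI replicates 2 and 3, the falls were 1. Hp, the haemoglobin scavenger haptoglobin, had 20842, 19878, 20062 and 21236 CPM in TNF_ROSI, against 336, 258, 309 and 239 CPM in basal_ROSI (6.17 ± 0.10). It made up 1.91% to 2.00% of all counts in TNF_ROSI libraries and 0.0227% to 0.0318% in basal_ROSI libraries. Complement factor B, Cfb, had 1865, 1538, 1369 and 1821 CPM in TNF_ROSI, against 12.9, 13.5, 18 and 15.3 CPM in basal_ROSI (6.79 ± 0.13). These groups stood apart in all 8 libraries. Lcn2, which withholds iron from bacteria, rose by 5.12 ± 0.14, the copper-carrying ferroxidase Cp by 2.91 ± 0.09 and the metalloreductase Steap4 by 2.15 ± 0.13. Cfd, the complement protease adipsin made by fat cells, went the other way, with 6932, 6783, 5177 and 6860 CPM in TNF_ROSI against 8902, 8341, 8518 and 9819 CPM in basal_ROSI (-0.47 ± 0.09).

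This group had a higher response in ROSI than in vehicle for 11 of its 27 genes and a lower one for none, against 10.1% and 4.51% of all genes. Hp rose by 6.17 in ROSI and by 3.94 in DMSO (difference 2.23 ± 0.12, adjusted p = 4.8e-17). Its level with TNF was the higher one in ROSI cells, as the plot of inflammatory genes by library shows, with a mean of 1.96% of all counts in TNF_ROSI and 1.29% in TNF_DMSO. Without TNF its level was the lower one in ROSI cells, with 0.0272% in basal_ROSI and 0.0835% in basal_DMSO, so the difference also holds this gap before TNF. Hpx rose by 8.02 and 6.90 (difference 1.12 ± 0.18), Steap4 by 2.15 and 0.84 (difference 1.31 ± 0.18) and Cfb by 6.79 and 5.92 (difference 0.87 ± 0.16). For Cp, with 2.91 and 2.50, the difference of 0.41 ± 0.12 was lost without TNF_ROSI replicate 4 (0.33). For the plasma carrier Orm1 the response was -0.07 ± 0.12 in ROSI, which was not called, and -1.17 in DMSO (difference 1.10 ± 0.16). For Cfd it was -0.47 in ROSI and -1.18 in DMSO (difference 0.71 ± 0.13). For Saa3 and Lcn2 the differences of 0.68 ± 0.40 and -0.44 ± 0.23 were not called.

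Genes of JAK-STAT signalling, which carries the signal of IL-6 type cytokines and interferons, rose in 21 of 23 cases and fell in none (median 1.07). The feedback inhibitor Socs3 had 47.8, 51.2, 42.2 and 38.3 CPM in TNF_ROSI, against 11.2, 9.05, 10.9 and 12.9 CPM in basal_ROSI (2.02 ± 0.11). The oncostatin M receptor Osmr rose by 3.35 ± 0.13 and the kinase Jak2 by 1.57 ± 0.10. Jak2 rose less in ROSI than in DMSO, by 1.57 and 2.15 (difference -0.58 ± 0.14). Cish, a STAT5-induced inhibitor, rose by 0.64 ± 0.09 in ROSI and fell by 0.36 in DMSO (difference 1.00 ± 0.13, adjusted p = 1.31e-07).

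Interferon-stimulated genes rose in 44 of 45 cases, with a median of 2.85, and the immunoproteasome and MHC class I genes in 20 of 20, with a median of 1.89. Irf1, the transcription factor at the head of many of them, had 344, 313, 258 and 318 CPM in TNF_ROSI, against 62.3, 60.6, 67.7 and 54.8 CPM in basal_ROSI (2.33 ± 0.08), and the groups did not overlap. The guanylate-binding protein Gbp2 rose by 3.82 ± 0.15 and the exonuclease Isg20 by 2.05 ± 0.24. Among the proteins that cut and load peptides, Psmb8 rose by 3.89 ± 0.18, Psmb10 by 2.68 ± 0.10 and the MHC chaperone Tapbp by 2.35 ± 0.09. The interferon list gave no higher and 1 lower response against vehicle, and that 1 was Irf1, with 2.33 in ROSI and 2.92 in DMSO (difference -0.59 ± 0.11, adjusted p = 0.000134). The MHC class I list gave 6 higher ones of 20, against 10.1% of all genes. Among them were Tapbp, with 2.35 in ROSI and 1.90 in DMSO (difference 0.46 ± 0.13), and Psmb8, with 3.89 and 3.19 (difference 0.71 ± 0.24). The Psmb8 difference was not called in 11 of the 16 fits without 1 library (0.59 to 0.72) or by DESeq2 (0.71).

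Of 17 matrix metalloproteinases and their inhibitors 11 rose and 3 fell (median 0.47). Mmp3, which degrades basement membrane, had 583, 607, 450 and 413 CPM in TNF_ROSI, against 2.55, 3.53, 2.84 and 1.15 CPM in basal_ROSI. The collagenase Mmp13 rose by 4.63 ± 0.20, the gelatinase Mmp9 by 5.78 ± 0.31 and the inhibitor Timp1 by 4.30 ± 0.16, while the gelatinase Mmp2 fell by 0.91 ± 0.11. Only Mmp9 of this list had a called difference from vehicle, with 5.78 in ROSI and 4.10 in DMSO (1.67 ± 0.48), and it was lost without basal_DMSO replicate 1 (1.37) and by limma-voom (2.00).

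Fat cell transcripts fell for many genes in ROSI. Of 27 tested adipogenic transcription factors 15 fell and 8 rose, with a median of -0.25, against -0.76 in DMSO. Cebpa, which keeps the mature fat cell programme on, had 236, 194, 244 and 274 CPM in TNF_ROSI, against 513, 481, 472 and 460 CPM in basal_ROSI (-1.02 ± 0.08). Pparg had 200, 185, 183 and 210 CPM in TNF_ROSI, against 277, 262, 219 and 290 CPM in basal_ROSI (-0.43 ± 0.08). Neither gene overlapped between groups, although for Pparg the nearest libraries were 210 CPM with TNF and 219 CPM without. The early factors Cebpb and Cebpd rose by 0.37 ± 0.09 and 0.92 ± 0.11, and Klf5, which precedes Pparg in differentiation, by 2.59 ± 0.14. The coactivators Ppargc1a and Ppargc1b, which raise mitochondrial gene expression, fell by 0.91 ± 0.14 and 1.48 ± 0.11, and their partner receptor Esrra by 1.09 ± 0.08.

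The response of these factors differed from vehicle upward in 14 of 27 cases and downward in 1, against 10.1% and 4.51% of all genes. Cebpa fell by 1.02 in ROSI and by 2.80 in DMSO (difference 1.77 ± 0.12, adjusted p = 3.51e-14), and Klf15, a glucocorticoid-induced factor of adipocytes, by 0.55 and 2.59 (difference 2.03 ± 0.15). Pparg fell by 0.43 and 1.42 (difference 0.99 ± 0.11), but the levels reached with TNF were close, with a mean of 194 CPM in TNF_ROSI and 214 CPM in TNF_DMSO, and the gap lay before TNF, with 262 CPM in basal_ROSI and 572 CPM in basal_DMSO. Srebf1, the factor of fatty acid synthesis, rose by 0.28 ± 0.09 in ROSI and fell by 0.84 in DMSO (difference 1.13 ± 0.12). Mlxipl, the carbohydrate-sensing factor ChREBP, rose by 0.72 ± 0.21 in ROSI and fell by 0.82 in DMSO (difference 1.54 ± 0.29).

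**Figure D3:**
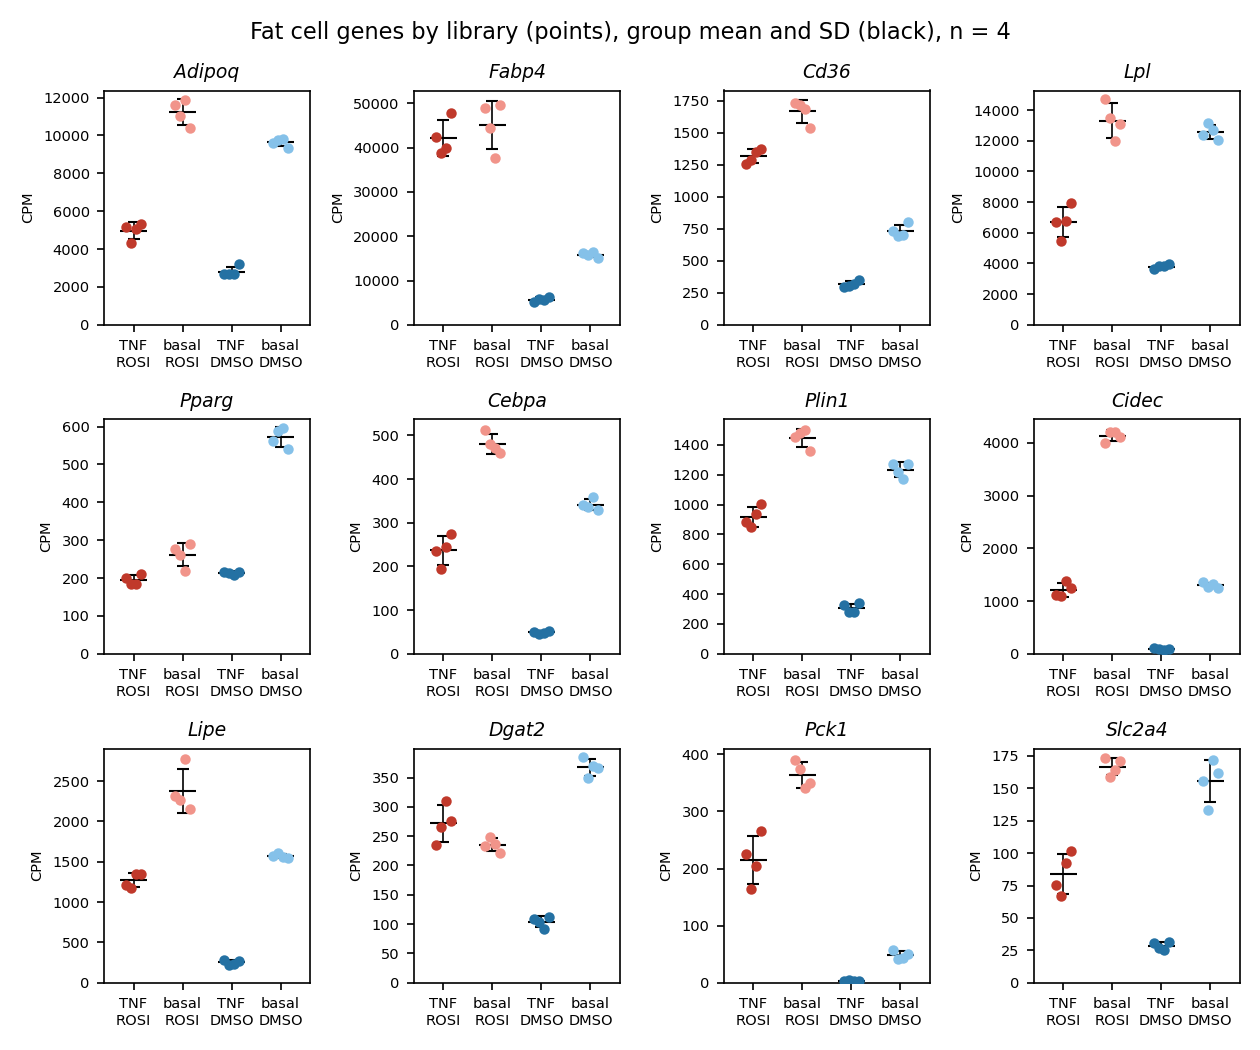
CPM of 12 fat cell genes in each of the 4 libraries of TNF_ROSI, basal_ROSI, TNF_DMSO and basal_DMSO (points), with the group mean and SD (n = 4); each axis starts at 0. The TNF_ROSI and basal_ROSI points overlap for Fabp4 and Dgat2 and are apart for the other 10 genes, while TNF_DMSO lies below basal_DMSO in every panel.

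Of 38 PPARγ targets 25 fell and 3 rose with TNF in ROSI (median -0.64), and in DMSO 31 fell and 3 rose (median -1.43). Their TNF response was higher in ROSI than in DMSO for 31 of 38 and lower for 2, against 10.1% and 4.51% of all genes. Fabp4, the fatty acid-binding protein that is among the most abundant transcripts of fat cells, did not pass the test in ROSI, with 42406, 38783, 39825 and 47743 CPM in TNF_ROSI and 48977, 44468, 37689 and 49537 CPM in basal_ROSI (-0.10 ± 0.10, adjusted p = 0.448). The groups overlapped. In DMSO it fell by 1.48 (difference 1.38 ± 0.14, adjusted p = 1.8e-09). Cd36, a fatty acid transporter, had 1256, 1283, 1350 and 1375 CPM in TNF_ROSI, against 1731, 1717, 1684 and 1538 CPM in basal_ROSI (-0.34 ± 0.06). Lipoprotein lipase, Lpl, had 6670, 5465, 6768 and 7922 CPM in TNF_ROSI, against 14721, 13467, 11959 and 13114 CPM in basal_ROSI (-0.99 ± 0.08). Both lay wholly below the libraries without TNF.

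Several targets showed a wide gap between ROSI and vehicle. Pck1, which supplies the glycerol backbone of triglycerides, had 226, 165, 204 and 266 CPM in TNF_ROSI, against 391, 374, 341 and 350 CPM in basal_ROSI (-0.76 ± 0.12). It fell by 3.77 in DMSO, to a mean of 3.59 CPM in TNF_DMSO against 48.3 CPM in basal_DMSO (difference 3.02 ± 0.21, adjusted p = 5.3e-14). Acaa1b, a peroxisomal thiolase, rose by 0.94 ± 0.20 in ROSI and fell by 2.13 in DMSO (difference 3.07 ± 0.44), where it was at 0.454 CPM with TNF and 2.03 CPM without. Arxes2 fell by 1.36 and 3.08 (difference 1.72 ± 0.13). Pdk4, a kinase that shuts off pyruvate entry, was at 52.8 to 69.6 CPM in TNF_ROSI and 49 to 68.4 CPM in basal_ROSI (0.14 ± 0.13, not called), and its response was higher than in DMSO by 1.09 ± 0.21. Glycerol kinase, Gk, rose by 0.69 ± 0.12. The 2 targets with a lower response were Angptl4 and Plin2. Angptl4, an inhibitor of lipoprotein lipase, had 1166, 1215, 1086 and 1134 CPM in TNF_ROSI against 594, 581, 579 and 617 CPM in basal_ROSI, and rose by 0.96 ± 0.06 in ROSI and by 1.96 in DMSO (difference -1.0 ± 0.09).

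Lipid droplet and lipolysis genes fell in 18 of 26 cases and rose in 1 (median -0.63), with 2 rises without TNF_ROSI replicate 2 and by limma-voom. The droplet-fusing protein Cidec had 1109, 1087, 1371 and 1239 CPM in TNF_ROSI, against 4003, 4212, 4214 and 4106 CPM in basal_ROSI (-1.78 ± 0.08). The droplet coat protein Plin1 had 886, 849, 937 and 1004 CPM in TNF_ROSI, against 1452, 1480, 1496 and 1360 CPM in basal_ROSI (-0.66 ± 0.06). The hormone-sensitive lipase Lipe had 1218, 1178, 1350 and 1352 CPM in TNF_ROSI, against 2311, 2270, 2776 and 2151 CPM in basal_ROSI (-0.90 ± 0.08). All 3 were lower in every TNF library. The triglyceride lipase Pnpla2 fell by 0.84 ± 0.07, and its inhibitor G0s2 by 1.06 ± 0.09. Plin2, a coat protein of most cells, fell by 0.22 ± 0.07 in ROSI, a call lost without basal_ROSI replicate 4 (-0.14), and rose by 0.75 in DMSO (difference -0.98 ± 0.11).

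The difference from vehicle in this list was higher for 18 of 26 genes and lower for 1, Plin2, against 10.1% and 4.51% of all genes. Cidec fell by 1.78 in ROSI and by 3.85 in DMSO (difference 2.07 ± 0.11, adjusted p = 4.8e-17), Lipe by 0.90 and 2.63 (difference 1.73 ± 0.11) and Plin1 by 0.66 and 2.01 (difference 1.36 ± 0.09). G0s2 fell by 1.06 and 3.02 (difference 1.96 ± 0.13), and Adrb3 by 3.05 and 5.24 (difference 2.19 ± 0.18). For Adrb3 the fall in ROSI was thus still among the 12 described above. The Cidec level was 90.0 CPM in TNF_DMSO against 1297 CPM in basal_DMSO, so that TNF_ROSI cells, at 1087 to 1371 CPM, were near vehicle cells without TNF.

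Of 19 genes of triglyceride synthesis 12 fell and 3 rose (median -0.70). Gpd1, which makes glycerol 3-phosphate, had 1557, 1297, 1796 and 1790 CPM in TNF_ROSI, against 4898, 4418, 4533 and 4107 CPM in basal_ROSI (-1.48 ± 0.09). The acyltransferases Gpat3 and Dgat1 fell by 2.01 ± 0.09 and 1.27 ± 0.08. Dgat2, which catalyses the same last step as Dgat1, had 235, 266, 310 and 276 CPM in TNF_ROSI, against 234, 248, 237 and 221 CPM in basal_ROSI. These groups overlapped, and the rise of 0.21 ± 0.07 (adjusted p = 0.0189) was no longer called without basal_ROSI replicate 4 (0.18) or without TNF_ROSI replicate 3 (0.14). In DMSO Dgat2 fell by 1.82 (difference 2.03 ± 0.11, adjusted p = 4.8e-17). Gpd1 fell by 1.48 in ROSI and by 3.47 in DMSO (difference 1.99 ± 0.13), and Gpat3 by 2.01 and 3.47 (difference 1.46 ± 0.13).

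De novo lipogenesis, the making of fatty acids from glucose, lost transcripts in 15 of 24 cases and gained them in 4 (median -0.54). Fatty acid synthase, Fasn, had 113, 112, 187 and 148 CPM in TNF_ROSI, against 472, 438, 559 and 471 CPM in basal_ROSI (-1.79 ± 0.12). The desaturase Scd1 fell by 0.66 ± 0.09 and the acetyl-CoA maker Acss2 by 1.27 ± 0.08. Against vehicle 15 of the 24 had a higher response and none a lower one, beside 10.1% and 4.51% of all genes. Thrsp fell by 2.28 in ROSI and by 5.37 in DMSO (difference 3.09 ± 0.21), Scd1 by 0.66 and 2.38 (difference 1.72 ± 0.12), and Fasn by 1.79 and 2.68 (difference 0.90 ± 0.16).

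Hormones made by fat cells fell in 13 of 19 cases and rose in 5 (median -0.57). Adipoq, which encodes the insulin-sensitizing hormone adiponectin, had 5159, 4301, 5078 and 5307 CPM in TNF_ROSI, against 11614, 11047, 11894 and 10382 CPM in basal_ROSI (-1.18 ± 0.07), and the groups did not overlap. It fell by 1.78 in DMSO (difference 0.60 ± 0.10). Resistin, Retn, fell by 1.34 in ROSI and by 2.40 in DMSO (difference 1.05 ± 0.16), Angptl8, which is induced by feeding, by 1.25 and 3.27 (difference 2.02 ± 0.28), and Nrg4, a secreted growth factor of brown fat, by 1.01 and 2.84 (difference 1.84 ± 0.19). Chemerin, Rarres2, rose by 1.48 ± 0.07 in ROSI and by 0.87 in DMSO (difference 0.61 ± 0.09).

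Insulin signalling and glucose uptake genes fell in 21 of 33 cases and rose in 8 (median -0.41), against 22.5% and 24.9% of all genes, and the rises were near that share. The insulin-responsive glucose transporter Slc2a4, known as GLUT4, had 75.4, 66.6, 92.1 and 101 CPM in TNF_ROSI, against 173, 159, 164 and 171 CPM in basal_ROSI (-0.99 ± 0.10). Irs1, which docks at the insulin receptor, fell by 0.85 ± 0.08, the phosphodiesterase Pde3b, through which insulin restrains lipolysis, by 1.27 ± 0.08, and the kinase Akt2 by 0.44 ± 0.06. Slc2a1, the transporter GLUT1 of most cells, rose by 0.91 ± 0.12. Slc2a4 fell by 0.99 in ROSI and by 2.44 in DMSO (difference 1.45 ± 0.14), and Tbc1d4, which controls GLUT4 traffic, by 0.53 and 1.96 (difference 1.43 ± 0.15). For the whole list of 33 the difference was higher for 10 and lower for 3, against 10.1% and 4.51% of all genes.

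Mitochondrial genes moved as blocks. Respiratory chain and ATP synthase subunits fell in 44 of 47 cases with none rising (median -0.68), and TCA cycle and pyruvate entry genes in 30 of 33 with none rising (median -0.64). The cytochrome Cyc1 of complex III had 247, 240, 286 and 269 CPM in TNF_ROSI, against 604, 620, 639 and 569 CPM in basal_ROSI (-1.22 ± 0.07). Pdhb, a subunit of pyruvate dehydrogenase, had 160, 149, 186 and 173 CPM in TNF_ROSI, against 470, 515, 455 and 472 CPM in basal_ROSI (-1.52 ± 0.06). The groups of both were far apart. Ndufs1 of complex I fell by 0.89 ± 0.06, Sdhb of complex II by 0.81 ± 0.06 and the TCA enzyme Idh3a by 0.99 ± 0.07. The difference from vehicle was higher for 24 of the 47 and 17 of the 33 genes and lower for none, against 10.1% and 4.51% of all genes. It was small for most, with a median of 0.32 in each list. It was 0.14 ± 0.10 for Cyc1, which was not called, 0.22 ± 0.09 for Pdhb, which was called only without TNF_ROSI replicate 2 (0.27), and 0.72 ± 0.10 for Idh3a, which was.

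Fatty acid oxidation genes fell in 18 of 29 cases and rose in 2 (median -0.48, against -1.0 in DMSO). Of the 29, 17 had a higher response than in vehicle and 1 a lower one, against 10.1% and 4.51% of all genes. The mitochondrial carnitine transferase Cpt2 fell by 0.83 ± 0.06. Crat, a carnitine acetyltransferase, fell by 0.56 in ROSI and by 1.58 in DMSO (difference 1.03 ± 0.10). The 2 that rose were the peroxisomal thiolases Acaa1a (0.71 ± 0.07) and Acaa1b. Among 12 brown and beige adipocyte genes 5 fell and 4 rose. Cidea, a droplet protein of brown fat, was at 12.2 to 17.1 CPM in TNF_ROSI and 15.9 to 26.2 CPM in basal_ROSI (-0.37 ± 0.19, adjusted p = 0.122) and fell by 2.66 in DMSO (difference 2.30 ± 0.32). Its change in ROSI was called when genes with low counts were kept in the fit (-0.36, adjusted p = 0.0323). The cytochrome oxidase subunit Cox8b of brown fat was not called in ROSI (0.08 ± 0.08) and fell by 0.98 in DMSO (difference 1.05 ± 0.11).

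Catabolism of branched-chain amino acids, which fat cells burn for fatty acid synthesis, fell in 21 of 24 genes and rose in 2 (median -0.57). The response was higher than in vehicle for 18 and lower for none, against 10.1% and 4.51% of all genes. The mitochondrial aminotransferase Bcat2 had 76.8, 87.4, 95.7 and 107 CPM in TNF_ROSI, against 159, 168, 165 and 187 CPM in basal_ROSI (-0.89 ± 0.09), and fell by 1.77 in DMSO (difference 0.89 ± 0.12). Hibch, a hydrolase of the valine pathway, fell by 0.82 and 1.79 (difference 0.96 ± 0.11). The 2 that rose were the cytosolic aminotransferase Bcat1 (1.89 ± 0.18) and the dehydrogenase subunit Bckdhb (0.66 ± 0.09).

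Cholesterol synthesis and uptake genes fell in 21 of 25 cases and rose in 3 (median -0.65, against -0.73 in DMSO). The synthase Hmgcs1 had 486, 522, 635 and 538 CPM in TNF_ROSI, against 1188, 1157, 1206 and 1110 CPM in basal_ROSI (-1.09 ± 0.07). Insig1, a sterol-sensing brake of the pathway, fell by 1.68 ± 0.10. The exporter Abca1 rose by 0.47 ± 0.08 and the sterol isomerase Ebp by 0.65 ± 0.10. The difference from vehicle was higher for 5 of the 25 genes and lower for 1, against 10.1% and 4.51% of all genes. Ebp (0.62 ± 0.14) was among the higher ones. The lower one was Hmgcs1, which fell by 1.09 in ROSI and by 0.81 in DMSO (-0.29 ± 0.09). That call was lost in 6 of the 16 fits without 1 library (-0.28 to -0.24).

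Antioxidant and NRF2 target genes went both ways, with 10 of 35 rising and 14 falling (median -0.10). Of all genes 24.9% rose and 22.5% fell, so the rises were near that share. Nqo1, a quinone reductase, had 27.3, 36, 27.2 and 32.6 CPM in TNF_ROSI, against 6, 6.82, 4.43 and 6.9 CPM in basal_ROSI (2.35 ± 0.12). Glutathione peroxidase, Gpx1, rose by 1.65 ± 0.07 and ferritin, Fth1, by 1.16 ± 0.06, while catalase, Cat, fell by 1.24 ± 0.07. Haem oxygenase, Hmox1, had 95.6, 178, 132 and 89.6 CPM in TNF_ROSI, against 213, 337, 248 and 369 CPM in basal_ROSI, a fall of 1.23 ± 0.20 with a wide spread and no overlap. In DMSO Hmox1 rose by 0.60 (difference -1.83 ± 0.29, adjusted p = 8.89e-06). Nqo1 rose by 2.35 in ROSI and by 1.25 in DMSO (difference 1.10 ± 0.17), and Gpx1 by 1.65 and 0.56 (difference 1.09 ± 0.10). Outside the list, the metallothionein Mt2, which binds zinc, had 8979, 11022, 8088 and 8376 CPM in TNF_ROSI, against 623, 842, 557 and 1146 CPM in basal_ROSI (3.53 ± 0.16).

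Of 38 collagen and matrix genes 19 fell and 11 rose (median -0.20), against 22.5% and 24.9% of all genes, and the rises were near that share. Col6a2 fell by 1.17 ± 0.07 and Col3a1 by 0.84 ± 0.08. The collagen cross-linking enzyme Loxl2 had 46.2, 48.9, 46.8 and 44.4 CPM in TNF_ROSI, against 2.7, 1.98, 2.35 and 1.86 CPM in basal_ROSI (4.36 ± 0.16). The proteoglycan Dcn rose by 1.17 ± 0.11. Col5a3 fell by 0.24 ± 0.07 in ROSI and rose by 0.72 in DMSO (difference -0.96 ± 0.11). The smooth muscle actin Acta2, counted with the fibroblast markers, had 252 to 337 CPM in TNF_ROSI and 61.1 to 112 CPM in basal_ROSI (1.82 ± 0.16, against 0.97 in DMSO, difference 0.85 ± 0.22).

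Cell cycle genes rose in 17 of 32 cases and fell in 1 (median 0.44, against 0.68 in DMSO). The count of 1 fall was 0 by DESeq2 and without any 1 of basal_ROSI replicates 2, 3 and 4 and TNF_ROSI replicates 1 and 4, and 2 without TNF_ROSI replicate 2. The replication factor Mcm3 had 47.2, 46.4, 42.8 and 42.5 CPM in TNF_ROSI, against 14.6, 14.8, 19.1 and 17.5 CPM in basal_ROSI (1.44 ± 0.11). Cyclin D1, Ccnd1, rose by 1.14 ± 0.09 in ROSI and by 0.39 in DMSO (difference 0.76 ± 0.12), and the topoisomerase Top2a by 0.50 and 1.12 (difference -0.62 ± 0.16).

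Stress genes of the unfolded protein and ATF4 responses fell in 14 of 30 cases and rose in 8 (median -0.22). The difference from vehicle was lower for 9 and higher for 3, against 4.51% and 10.1% of all genes. The stress factor Atf3 had 14.2, 17.9, 14.2 and 12.3 CPM in TNF_ROSI and 8.66, 12.4, 11.2 and 17.8 CPM in basal_ROSI, which overlapped (0.24 ± 0.18, adjusted p = 0.281), and basal_ROSI replicate 4 was the high one. Without that library the change was called (0.46). Atf3 rose by 2.08 in DMSO (difference -1.85 ± 0.26, adjusted p = 1.59e-06). Ppp1r15a, which restarts protein synthesis after stress, fell by 1.32 ± 0.21 in ROSI, and the response in DMSO was 0.40 (difference -1.71 ± 0.30). Asns, which makes asparagine, fell by 0.73 ± 0.06. The chaperone Hspa5 rose by 0.65 ± 0.05, and its helper Dnajb9 by 0.26 ± 0.06 in ROSI against a fall of 0.66 in DMSO (difference 0.92 ± 0.09). Glycolysis genes rose in 5 of 19 cases and fell in 8 (median 0.07), against 24.9% and 22.5% of all genes, and the rises were near that share.

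Set beside the vehicle cells over all genes, TNF in DMSO raised 3852 genes (26.7%) and lowered 3965 (27.5%), and it lowered 1460 genes at least 2-fold, against 721 in ROSI. The genes raised in ROSI and in DMSO had 2705 in common, 75.3% of the ROSI calls and 70.2% of the DMSO calls. The lowered genes had 2527 in common, 78.0% of the ROSI calls and 63.7% of the DMSO calls. Pearson's r of the 2 responses was 0.81 across 14428 genes, which share the libraries and are not independent. The median of the difference over all genes was 0.06.

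**Figure D4:**
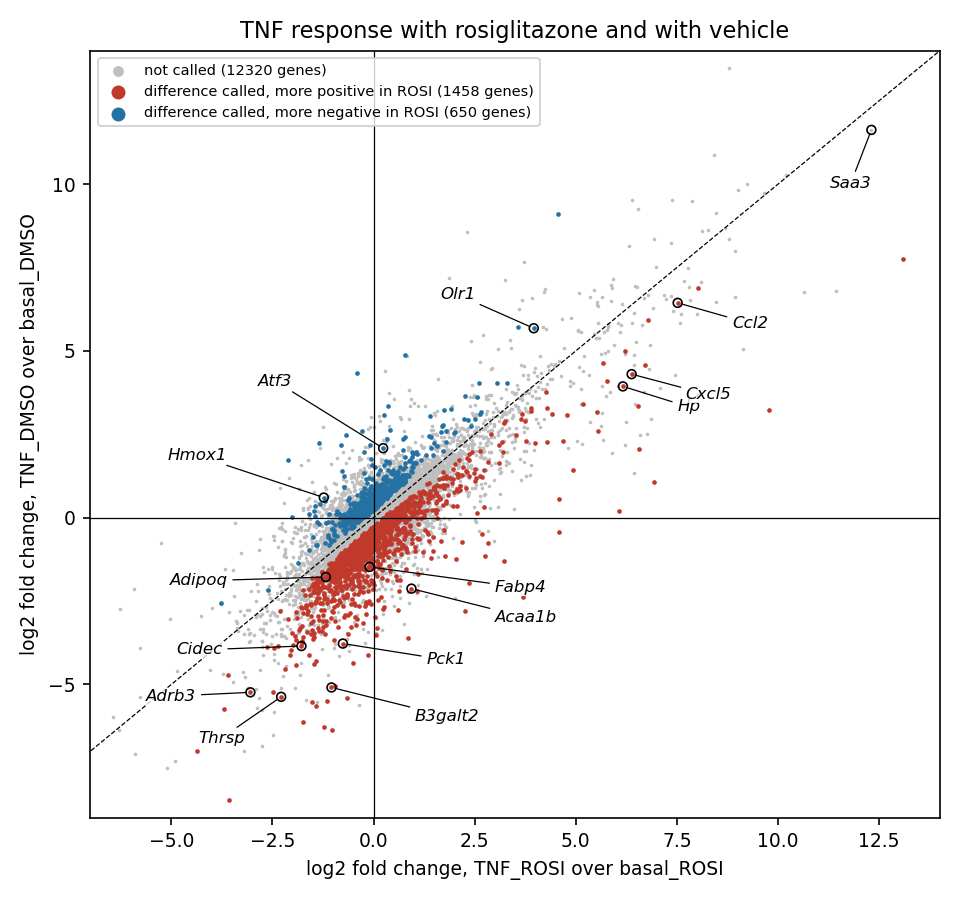
TNF response of each of 14428 genes in ROSI (horizontal, log2 TNF_ROSI over basal_ROSI) and in DMSO (vertical, log2 TNF_DMSO over basal_DMSO), with genes whose difference was called in red (more positive in ROSI, 1458) or blue (more negative in ROSI, 650) and the line of equal responses dashed. Of the red points 937 are genes with a called fall in the mean of both responses, and these lie below the line.

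The most frequent kind of called difference was a more positive response in ROSI among genes with a called mean fall. Genes were sorted by the mean of the ROSI and DMSO responses, which is not the quantity tested. A class can therefore hold genes that moved in opposite directions in ROSI and in DMSO. Of 4412 genes whose mean response was a fall, 937 (21.2%) had a more positive response in ROSI, with medians of -0.48 in ROSI and -1.19 in DMSO. A more negative response in ROSI was called for 135 (3.06%). Of 4428 genes whose mean response was a rise, 368 (8.31%) had a more negative response in ROSI, with medians of 0.22 in ROSI and 0.83 in DMSO. A more positive response in ROSI was called for 314 (7.09%), with medians of 1.04 and 0.33. The remaining 354 called genes were among 5588 with no called mean response.

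B3galt2, a galactosyltransferase, had the largest positive difference from vehicle of the called genes that reached 16 CPM in any of the 4 groups. It had 41.4, 33.7, 40.7 and 38.6 CPM in TNF_ROSI, against 90, 80.7, 79 and 67.3 CPM in basal_ROSI (-1.04 ± 0.12). In DMSO its mean was 1.67 CPM with TNF and 58.0 CPM without, a fall of 5.09, and the difference was 4.05 ± 0.20 (adjusted p = 1.82e-17). Abcc3, an exporter of conjugated bile acids and drugs, went up instead, with 20.9 to 34.4 CPM in TNF_ROSI against 0 to 0.992 CPM in basal_ROSI (6.53 ± 0.41, against 3.34 in DMSO, difference 3.19 ± 0.87). That difference was not called without basal_DMSO replicate 1 (2.40) or by limma-voom (3.65, adjusted p = 0.0651).

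Beside Atf3, Hmox1 and Ppp1r15a, described above, the most negative differences included Olr1 and Pim1. The oxidized lipoprotein receptor Olr1 had 208, 190, 180 and 209 CPM in TNF_ROSI, against 11.9, 13.1, 12.4 and 13.1 CPM in basal_ROSI (3.96 ± 0.12). It rose by 5.68 in DMSO (difference -1.72 ± 0.25), but its level was higher in all ROSI libraries both with TNF, at a mean of 197 CPM against 42.3 CPM in TNF_DMSO, and without, at 12.6 CPM against 0.787 CPM in basal_DMSO. The kinase Pim1 rose by 1.40 in ROSI and by 3.05 in DMSO (difference -1.65 ± 0.20).

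TNF moved some genes in opposite directions in the 2 backgrounds, with 88 raised in ROSI and lowered in DMSO and 43 the other way. Igfals, a binding protein of circulating IGF-1, had 35.6, 28.9, 25.6 and 31.7 CPM in TNF_ROSI, against 9, 7.81, 10.4 and 8.65 CPM in basal_ROSI (1.75 ± 0.11), and fell by 0.38 in DMSO (difference 2.13 ± 0.15). Cdo1, which begins cysteine breakdown, rose by 0.56 ± 0.08 in ROSI and fell by 1.29 in DMSO (difference 1.85 ± 0.12). The keratin Krt79 rose by 1.37 and fell by 0.71 (difference 2.08 ± 0.26), and the secreted protein gene Fibin rose by 0.56 and fell by 1.75 (difference 2.32 ± 0.23). Acaa1b, Srebf1, Mlxipl, Cish and Dnajb9, described above, were also raised in ROSI and lowered in DMSO, and Hmox1, Plin2 and Col5a3 were lowered in ROSI and raised in DMSO.

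Against the other compounds the TNF response in ROSI differed for far fewer genes. Against SCO 248 differences (1.72%) were called, 184 higher in ROSI and 64 lower, and against CAP7 65 (0.451%), 37 higher and 28 lower. At an unadjusted p under 0.05 there were 1971 and 1364 genes, against 3930 for the difference from DMSO. These small counts depended on single libraries. The 184 fell to 105 without basal_SCO replicate 1, 94 without TNF_SCO replicate 3, 117 without TNF_SCO replicate 4 and 101 without TNF_ROSI replicate 4. The 64 fell to 30 without basal_SCO replicate 4, 38 without basal_ROSI replicate 3 or TNF_ROSI replicate 1, 42 without TNF_SCO replicate 3 and 27 without TNF_ROSI replicate 4. Against CAP7, the 37 fell to 24 without basal_CAP7 replicate 3 and 21 without basal_ROSI replicate 1, and the 28 to 16 without basal_ROSI replicate 1 or TNF_CAP7 replicate 3.

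The TNF response of Cxcl5 was 6.38 in ROSI, 4.85 in SCO and 5.30 in CAP7, with differences of 1.53 ± 0.19 (adjusted p = 1.18e-05) and 1.09 ± 0.19 (adjusted p = 0.00294), the second of them not called by limma-voom (1.02, adjusted p = 0.0549). Enpp2, the autotaxin that makes lysophosphatidic acid, had 617, 711, 669 and 617 CPM in TNF_ROSI, against 234, 235, 321 and 304 CPM in basal_ROSI. It rose by 1.26 in ROSI, 0.36 in SCO and 0.43 in CAP7 (differences 0.90 ± 0.12 and 0.83 ± 0.12), and the response in DMSO was 0.01. The nuclear corepressor Hr rose by 2.53 in ROSI, 1.28 in SCO and 1.15 in CAP7 (differences 1.26 ± 0.27, not called by limma-voom, and 1.39 ± 0.27). Olr1 rose less in ROSI than with either compound (differences -1.08 ± 0.20 from SCO and -1.09 ± 0.20 from CAP7). In the cell cycle list the difference was lower for 4 of 32 genes against SCO and for 5 against CAP7. Of all 14428 genes it was lower for 64 and 28. It was higher for none of the list in either, near the small share of all genes, 184 and 37 of 14428. Thymidine kinase, Tk1, rose by 0.58 in ROSI, 1.34 in SCO and 1.50 in CAP7 (differences -0.77 ± 0.16 and -0.92 ± 0.16), and the ribonucleotide reductase subunit Rrm2 by 0.58, 1.22 and 1.62 (differences -0.64 ± 0.17 and -1.04 ± 0.18). The Rrm2 difference from SCO was lost in 12 of 16 fits without 1 library (-0.67 to -0.56). Mcm5, a replication licensing factor, rose by 1.0 ± 0.13 in ROSI and by 1.90 in CAP7 (difference -0.91 ± 0.19), which was not called without basal_ROSI replicate 1 (-0.82).

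**Figure D5:**
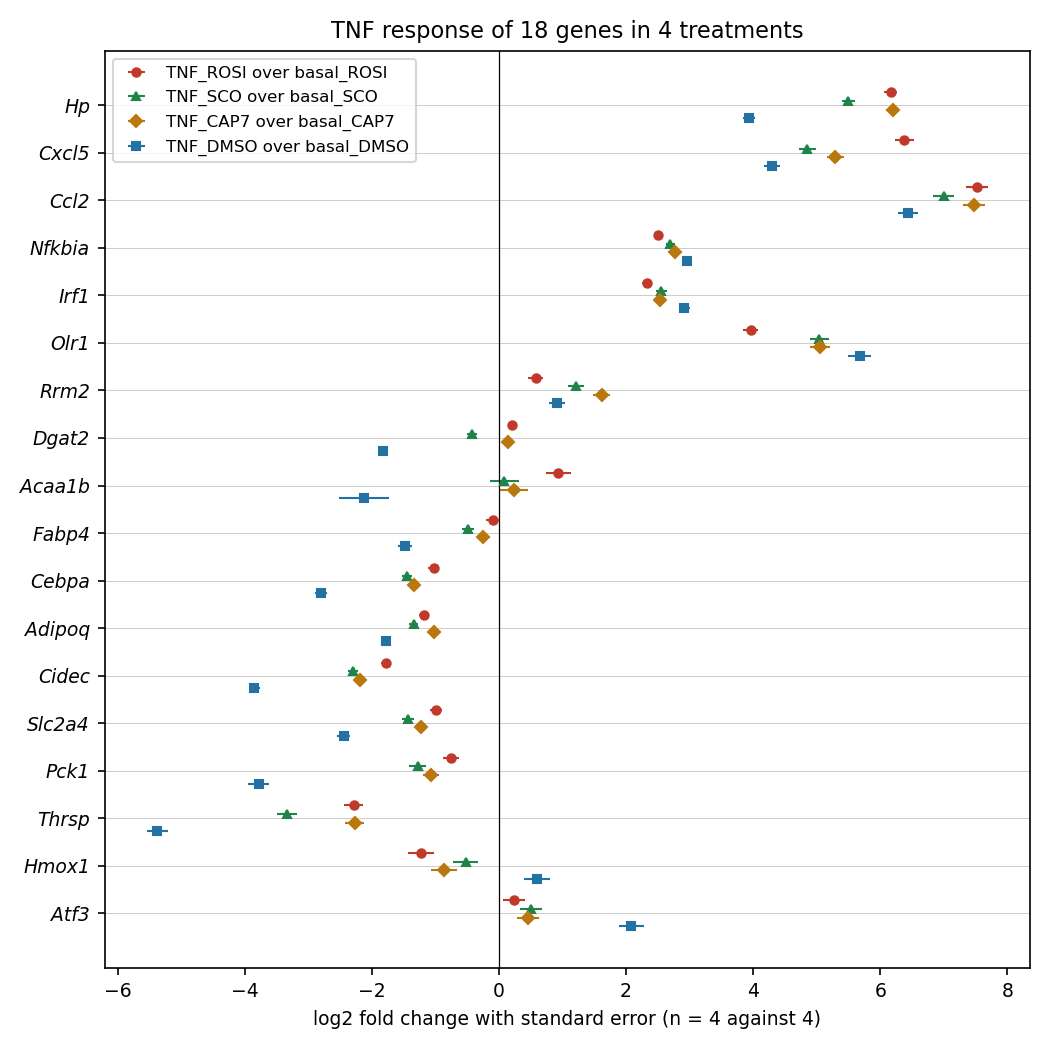
Log2 TNF response of 18 genes with its standard error (4 against 4 libraries) in ROSI (red circles), SCO (green triangles), CAP7 (amber diamonds) and DMSO (blue squares). For the fat cell genes DMSO lies lower than ROSI, as for Cidec with -1.78 in ROSI, -2.29 in SCO, -2.19 in CAP7 and -3.85 in DMSO. For some of them SCO also lies below ROSI by a called difference, such as Thrsp (1.05), Dgat2 (0.63) and Cidec (0.51).

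Of the 10 adipocyte markers, 4 had a higher response in ROSI than in SCO, beside 184 of all 14428 genes. None had a called difference from CAP7, which is near the 0.451% of all genes that had one. Cidec fell by 1.78 in ROSI and 2.29 in SCO (difference 0.51 ± 0.11, adjusted p = 0.0063). Its fall of 2.19 in CAP7 gave a difference of 0.41 ± 0.11 (adjusted p = 0.0732), which was called without basal_CAP7 replicate 1 or TNF_ROSI replicate 2 (0.45 to 0.47), by DESeq2 (0.38) and by limma-voom (0.40). Dgat2 responded by 0.21 in ROSI, -0.42 in SCO and 0.14 in CAP7 (differences 0.63 ± 0.11 and 0.07 ± 0.11), and Thrsp by -2.28, -3.34 and -2.27 (differences 1.05 ± 0.20 and -0.01 ± 0.20). The differences from SCO were called and those from CAP7 were not. Hp followed the same order, with 6.17 in ROSI, 5.50 in SCO and 6.20 in CAP7 (differences 0.67 ± 0.12 and -0.03 ± 0.12), and so did Igfals, with 1.75, 0.60 and 1.69 (differences 1.15 ± 0.16 and 0.06 ± 0.16). Acp5, a tartrate-resistant acid phosphatase, rose more in ROSI than in SCO (difference 1.27 ± 0.17), and its difference from CAP7 was called only where genes with low counts were kept in the fit (0.52). The membrane protein Emp1 had a higher response in ROSI than in CAP7 (0.34 and -0.47, difference 0.81 ± 0.13). Several of the largest called differences from these compounds did not hold up. The guanylate-binding protein Gbp11 rose by 4.28 in ROSI and 2.85 in SCO (difference 1.43 ± 0.38, adjusted p = 0.0394), a call lost in 10 of 16 fits without 1 library (1.19 to 1.44) and by limma-voom (1.39). Isg20 rose by 2.05 in ROSI and 0.81 in SCO (1.24 ± 0.34, adjusted p = 0.0488), lost in 11 of the 16 (0.98 to 1.27) and by DESeq2 and limma-voom. The metallothionein Mt2 rose by 3.53 in ROSI and 2.69 in CAP7 (0.83 ± 0.20, adjusted p = 0.0442), lost in 11 of 16 (0.70 to 0.87) and by DESeq2. The IL-33 receptor Il1rl1 rose by 4.39 in ROSI, 5.51 in SCO and 5.56 in CAP7 (differences -1.12 ± 0.27 and -1.17 ± 0.27). The first was lost without basal_SCO replicate 4 or basal_ROSI replicate 1 (-1.08 to -1.04), the second in 9 of 16 fits (-1.18 to -1.03), and both by limma-voom. Slc41a3, of a family of magnesium transporters, rose by 1.55 in ROSI, 0.75 in SCO and 0.70 in CAP7 (differences 0.80 ± 0.18 and 0.84 ± 0.18). The first was lost without basal_SCO replicate 1 (0.68), the second without basal_ROSI replicate 1, basal_CAP7 replicate 3 or TNF_CAP7 replicate 3 (0.73 to 0.79).

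For Nfkbia and Irf1 no difference from SCO or CAP7 was called, with estimates between -0.27 and -0.19.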

How the data were processed

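RNA from 32 libraries (8 groups of 4) was read by 3' mRNA sequencing. Raw counts per gene were deposited by the authors as 1 table of 57186 Ensembl genes. Per the submitters' processing notes, cutadapt 4.9, STAR 2.7.11b, HTSeq 2.0.5, R 4.4.1, limma 3.60.6 and the build GRCm39 were used, with no parameters given. A count near the 3' end does not depend on transcript length but can miss isoforms with other ends.

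Counts were analysed with edgeR 4.0.16 and limma 3.58.1 in R 4.3.3. Genes kept by edgeR's filter on low counts (14428 of 28862 with a count) were scaled by TMM and fitted in 1 quasi-likelihood model over all 32 libraries, with 24 residual degrees of freedom and a common biological coefficient of variation of 0.112. The contrasts were TNF_ROSI over basal_ROSI and the TNF response in ROSI minus that in DMSO, SCO or CAP7, each adjusted by Benjamini and Hochberg at 0.05. The standard error is the fold change divided by the square root of F. Depth ran from 11.3 to 37.7 M counts a library, and reads without molecular identifiers are not independent molecules. The fit was tested on simulated data.

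The genes and lists were chosen with earlier results of these data known. The rule for named genes took the largest called changes and differences among genes that reached 16 CPM in any group compared, the lowest p-values in each list, members called against their list, genes called in opposite directions, and a set of known TNF and fat cell genes. Not every gene it named is described, among them small RNAs, and 1 is not reported here. As alternatives, DESeq2 1.42.0 and limma-voom replaced the test, RLE factors or library size alone replaced TMM, and the filter was dropped or set at 5 CPM in 4 libraries. Others added a replicate block, dropped mitochondrially encoded genes, fitted only the compared libraries, or left out each library in turn. Promoters of 10060 tested genes matched by symbol.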

Additional observations from a re-analysis of the deposited data

Results flagged for a closer look

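In 12 of 346 checks of a named gene in TNF_ROSI or basal_ROSI, 1 library stood apart from the other 3 by the Dixon criterion, which chance alone meets in about 1 of 20 groups. Adrb3 had 125 CPM in basal_ROSI replicate 2, with 146 to 150 CPM in the other 3 libraries of the group. Ccl6 had 32.8 CPM in TNF_ROSI replicate 2, with 21.1 to 22.7 CPM in the other 3 libraries of the group. Traf3 had 28.8 CPM in TNF_ROSI replicate 4, with 25.3 to 25.6 CPM in the other 3 libraries of the group. Tnip1 had 55.3 CPM in basal_ROSI replicate 4, with 50.4 to 51.1 CPM in the other 3 libraries of the group. Cfd had 5177 CPM in TNF_ROSI replicate 3, with 6783 to 6932 CPM in the other 3 libraries of the group. Jak2 had 57.4 CPM in TNF_ROSI replicate 2, with 43.6 to 45.4 CPM in the other 3 libraries of the group. Gbp2 had 22.2 CPM in basal_ROSI replicate 3, with 12.7 to 14.2 CPM in the other 3 libraries of the group. G0s2 had 1323 CPM in basal_ROSI replicate 4, with 1455 to 1470 CPM in the other 3 libraries of the group. Rarres2 had 1012 CPM in basal_ROSI replicate 3, with 891 to 907 CPM in the other 3 libraries of the group. Cidea had 26.2 CPM in basal_ROSI replicate 4, with 15.9 to 16.9 CPM in the other 3 libraries of the group. Fth1 had 8278 CPM in TNF_ROSI replicate 4, with 7504 to 7581 CPM in the other 3 libraries of the group. Fibin had 15.3 CPM in basal_ROSI replicate 1, with 11.5 to 12 CPM in the other 3 libraries of the group.

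The TNF response in ROSI minus that in DMSO (log2), tested as an interaction, was called for these genes among those whose difference the report gives. It was positive for Hpx (1.12), Ccl2 (1.08), Adrb3 (2.19), Thrsp (3.09), Relb (0.69), Bcl3 (0.51), Tnip1 (0.35), Ccl9 (1.01), Cxcl5 (2.08), Csf1 (0.37), Cd14 (1.44), Hp (2.23), Cfb (0.87), Cp (0.41), Steap4 (1.31), Orm1 (1.10), Cfd (0.71), Cish (1.0), Psmb8 (0.71), Tapbp (0.46), Mmp9 (1.67), Pparg (0.99), Cebpa (1.77), Klf15 (2.03), Srebf1 (1.13), Adipoq (0.60), Fabp4 (1.38), Plin1 (1.36), Cidec (2.07), Lipe (1.73), G0s2 (1.96), Gpd1 (1.99), Arxes2 (1.72), Pck1 (3.02), Acaa1b (3.07), Gpat3 (1.46), Dgat2 (2.03), Fasn (0.90), Scd1 (1.72), Slc2a4 (1.45), Tbc1d4 (1.43), Retn (1.05), Angptl8 (2.02), Nrg4 (1.84), Rarres2 (0.61), Idh3a (0.72), Crat (1.03), Cidea (2.30), Cox8b (1.05), Bcat2 (0.89), Hibch (0.96), Ebp (0.62), Nqo1 (1.10), Gpx1 (1.09), Acta2 (0.85), Ccnd1 (0.76), Dnajb9 (0.92), B3galt2 (4.05), Abcc3 (3.19), Igfals (2.13), Cdo1 (1.85), Krt79 (2.08), Fibin (2.32), Pdk4 (1.09) and Mlxipl (1.54). It was negative for Nfkbia (-0.45), Tnfaip3 (-0.75), Tnfaip2 (-0.72), Jak2 (-0.58), Irf1 (-0.59), Plin2 (-0.98), Angptl4 (-1.0), Hmgcs1 (-0.29), Hmox1 (-1.83), Col5a3 (-0.96), Top2a (-0.62), Atf3 (-1.85), Ppp1r15a (-1.71), Olr1 (-1.72) and Pim1 (-1.65).

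The TNF response in ROSI minus that in SCO (log2), tested as an interaction, was called for these genes among those whose difference the report gives. It was positive for Thrsp (1.05), Cxcl5 (1.53), Hp (0.67), Isg20 (1.24), Cidec (0.51), Dgat2 (0.63), Igfals (1.15), Enpp2 (0.90), Acp5 (1.27), Hr (1.26), Gbp11 (1.43) and Slc41a3 (0.80). It was negative for Rrm2 (-0.64), Tk1 (-0.77), Olr1 (-1.08) and Il1rl1 (-1.12).

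The TNF response in ROSI minus that in CAP7 (log2), tested as an interaction, was called for these genes among those whose difference the report gives. It was positive for Cxcl5 (1.09), Enpp2 (0.83), Mt2 (0.83), Hr (1.39), Emp1 (0.81) and Slc41a3 (0.84). It was negative for Rrm2 (-1.04), Tk1 (-0.92), Olr1 (-1.09), Il1rl1 (-1.17) and Mcm5 (-0.91).

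Several of these calls do not survive leaving out 1 library, as given beside each gene in the report.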

How the results depend on the processing

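The counts of genes raised and lowered by TNF in ROSI, and of differences from DMSO, stayed within 1.5 times of the reported ones under all alternatives, except that with at least 5 CPM in 4 libraries, where fewer genes are tested, 772 rose and 397 fell at least 2-fold. The balance of rises and falls in ROSI, 3594 and 3240 as reported, changed with the scaling. With RLE factors 3374 genes rose and 3430 fell, and by DESeq2 3462 and 3526. Without mitochondrially encoded genes 3365 rose and 3434 fell, and 1317 differences from DMSO were higher and 819 lower. The counts of differences from SCO and CAP7 were less stable. Against SCO, 307 were higher and 170 lower with no filter on low counts, 148 lower by DESeq2, and 41 lower in a fit of only the compared libraries. Against CAP7, 86 were higher and 79 lower with no filter, 58 and 88 by DESeq2, and 17 and 12 with only the compared libraries. Leaving out each library gave 94 to 208 higher and 27 to 86 lower against SCO, and 21 to 38 higher and 16 to 36 lower against CAP7. The cause of these shifts was not tested. Of 1054 counts of list members, 1039 stayed within 1.5 times and 15 did not. No change or difference of a named gene that was called in the main or the alternative fit changed direction. Sign changes of estimates called in neither fit were not counted. Over all fits of the 173 genes named, the call of TNF in ROSI was lost in 6 and gained in 2, that of the difference from DMSO was lost in 48 and gained in 1, and that of the difference from SCO or CAP7 was lost in 81 and gained in 11. Replicate numbers did not pair the libraries: deviations of same-numbered TNF_ROSI and basal_ROSI libraries correlated at -0.0055 to 0.060. With a replicate block 3625 genes rose and 3248 fell in ROSI, and 1479 differences from DMSO were higher and 672 lower.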
